A study of Triticum aestivum with 12 samples.

Results

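Line C40 was compared with line C20, a pair of transgenic bread wheat (Triticum aestivum) lines that the labels describe alike, as overexpression lines of TaSIP1ΔC. Of 75788 genes with enough counts for testing, 74741 entered the comparison, and the 1047 genes of chromosome 2A that end at or before base 143276770 were left out of the counts of called genes and families; 1 of them is named below, at the edge of that stretch. Each line had 3 RNA-seq libraries, made from total RNA of shoots, without roots, of untreated plants 2 months after germination. Wild-type plants (WT), also with 3 libraries, serve as a reference level, and line C22, which carries the same construct by its label, is quoted for a few genes. The labels give no promoter, insertion site or copy number for any line, and nothing says that the 3 libraries of a line stem from different plants. The p-values therefore measure only how far these libraries vary, which may be technical. The comparison asks how far shoots of lines with the same construct differ in gene expression.

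The series title places TaSIP1 in mitochondrial retrograde signalling, the route by which mitochondria under stress change nuclear gene expression, and in salt tolerance. In plants, this route is known for NAC transcription factors and for the alternative oxidase gene, its usual marker. Most genes called between the lines were of other kinds. Some belong to families that control the shoot meristem and flowering, among them KNOX homeobox genes and PEBP genes. Certain KNOX genes, but not all, are known from maize and Arabidopsis to keep meristem cells undetermined and to be silent in the leaf blade. Which of the KNOX genes here are of that kind was not determined. The PEBP family holds both the mobile flowering signal and its antagonists. Other called genes belong by their domains to families known for cuticle waxes, for transport of metals, ions and hormones, or as pathogenesis-related proteins. What each of these genes does was not determined. Families were read from the Pfam domains that the deposited table lists for each gene. The table gives no gene names, and TaSIP1 could not be matched to a gene ID, so the level of the transgene was not checked.

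Each library held between 25622422 and 43532179 counts assigned to genes, with 26547959 to 31028886 in C40 and 27274952 to 29574512 in C20. Pearson correlations of log2 levels across genes, which are not independent replicates, were 0.858 to 0.955 between the C40 libraries, 0.743 to 0.891 between those of C20 and 0.953 to 0.978 between those of WT. The libraries of each line also differed in genes of cell division: the mean log2 level of the core histone genes was -0.55, 3.27 and 3.97 in C40 replicates 1 to 3, and 3.05, 4.42 and -0.7 in C20 replicates 1 to 3. C40 replicate 1 and C20 replicate 3 were thus the histone-poor libraries of their lines, near the WT range of -1.38 to -1.22. Chlorophyll a/b-binding genes, which mark green leaf tissue, summed to 28800 to 57400 CPM, counts scaled to the same library size, in C40 and 24800 to 127000 CPM in C20, with C20 replicate 2 lowest. In bulk libraries of this kind, fewer cells of a type and less RNA per cell cannot be told apart. All levels below are CPM over scaled library sizes, given in the order of replicates 1, 2 and 3, and a difference is C40 minus C20.

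At an adjusted p of at most 0.05 (quasi-likelihood test of edgeR, p-values adjusted by Benjamini-Hochberg over all genes), 1097 genes differed between the lines, which is 1.47 percent of the genes compared. Of these, 786 (1.05 percent) were higher in C40 and 311 (0.416 percent) were lower. Most of the differences were large: 752 of the higher and 299 of the lower genes differed at least 2-fold, and 376 and 96 at least 8-fold. The median log2 difference over all genes was 0.01. The WT level lay nearer to C20 than to C40 for 611 of the 786 higher genes (77.7 percent) and for 281 of the 311 lower genes (90.4 percent), against 59 percent of all genes compared. Without regard to the test, the 3 libraries of C40 lay entirely above those of C20 for 7735 genes (10.3 percent) and entirely below for 3958 (5.3 percent), 15.6 percent together, and all 1097 called genes were among them.

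These counts rest on the spread being shared by all 12 libraries. When only the 6 libraries of C40 and C20 were fitted, 0 genes passed (smallest adjusted p = 0.0537), although 6101 had an unadjusted p below 0.05 and DESeq2 on all 12 libraries called 4964. Leaving out 1 library at a time gave 555, 620 and 270 called genes without C40 replicates 1, 2 and 3, and 224, 3624 and 894 without C20 replicates 1, 2 and 3. Without C20 replicate 2, the genes lower in C40 (2283) outnumbered the higher ones (1341). Each of the 1097 genes kept the sign of its difference in all 6 of these fits. The leave-one-out counts given for gene families below are in this same order of libraries. The share of each family that was called is to be read beside the 1.05 percent higher and 0.416 percent lower over all genes. A gene expressed in C40 alone could enter the test by that level. Shares therefore describe the genes tested and not whole families. Of 110 called genes named below, those at the edge of the 2A stretch aside, 42 passed in each of the 6 fits and are described as held. The others lost the call without at least 1 library, most often C20 replicate 1 (63 genes) or C40 replicate 3 (61 genes). All 6 fits still shared the spread with WT and C22, so held refers only to the loss of 1 library. With the C40 and C20 libraries alone, no gene described as held passed. Beside a family count of 0, the numbers in brackets are the genes of that direction at an unadjusted edgeR p below 0.05 and those called by DESeq2.

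**Figure D1:**
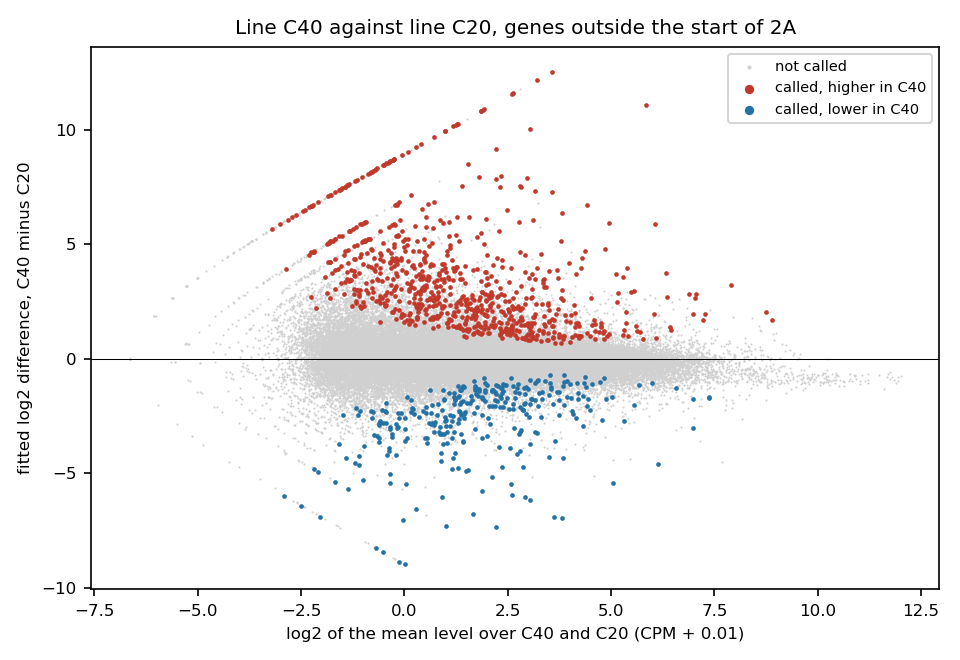
Each point is a gene, with its mean level over the C40 and C20 libraries (log2 CPM) on the horizontal axis and the fitted log2 difference, C40 minus C20, on the vertical axis; coloured points are the 786 genes called higher and the 311 called lower. The grey cloud is centred at 0.01, and called genes reach farther above 0 than below it.

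At the end of the stretch left out on 2A, the nearest gene tested on either side lay wholly lower in C40. Just inside it, TraesCS2A01G183600, a WPP-domain gene at 143276273 to 143276770, measured 2.89, 4.51 and 4.53 CPM in C40 and 7.41, 7.91 and 8.91 in C20. Just outside it, an unnamed locus (143432070 to 143436058) measured 4.25, 2.91 and 2.51 in C40 and 6.06, 6.29 and 5.08 in C20. Their log2 differences were -1.02 and -0.85 (edgeR adjusted p = 0.0309 and 0.0952). Farther outside, TraesCS2A01G183800 overlapped between the lines (edgeR adjusted p = 0.462). TraesCS2A01G183900 (144261778 to 144263733) was higher in C40, at 4, 5.04 and 3.51 against 1.06, 0.472 and 0.72 CPM (log2 difference 2.48, edgeR adjusted p = 0.0168). Of the 1047 genes tested within the excluded stretch, 4 passed as higher and 158 as lower in C40. Among the 74741 genes compared, these numbers were 786 and 311. Coordinates here and below are those of the deposited table, which names no genome build. On the rest of the genome the called genes were spread over all chromosomes, from 0.917 percent of the genes tested on 4B to 1.84 percent on 2D, with 2.8 percent among genes on unplaced sequence. The A, B and D subgenomes had 0.988, 0.987 and 1.14 percent of their genes called higher in C40.

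KNOX homeobox genes gave an on-off contrast between the lines. Of 37 such genes in the table, 28 were tested, and 11 were higher in C40 and 0 lower (2 and 1), or 39.3 percent against 1.05 percent of all genes. This family, like the other families whose choice is marked in the methods, was listed after its values had been seen. The count of such a family, and any permutation p of its summed level, is therefore a description. TraesCS2A01G267400 (2A, 426376519 to 426381129) had 7.08, 7.2 and 7.48 CPM in C40 and no count in any library of C20 or WT. That is at least 201-fold higher in C40, with counts pooled over the libraries of a line and 3 counts over the C20 group as the floor (edgeR adjusted p = 0.00194). In line C22 the same gene measured 3.76, 1.99 and 3.03 CPM. TraesCS2B01G268200 had 13.3, 8.44 and 11.4 CPM in C40 against 0, 0.207 and 0.135 in C20, a log2 difference of 6.51 ± 0.68 (SE; edgeR adjusted p = 0.00303). TraesCS2D01G256400 followed with 8.86, 5.56 and 8.79 against 0.256, 0.0295 and 0.045 CPM (6.1 ± 0.63; edgeR adjusted p = 0.00284). These genes of 2A, 2B and 2D were therefore on in every C40 library and near 0 in every C20 library.

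TraesCS4A01G256700 measured 11, 7 and 9.56 CPM in C40, 0.0365, 0 and 0 in C20 and 0 in all WT libraries. Its C40 to C20 ratio was 772, with a 95 percent counting interval of 138 to 30500 (edgeR adjusted p = 0.0014). TraesCS4D01G058000 measured 6.8, 3.4 and 5.43 CPM against 0.073, 0 and 0 (ratio 219, interval 60.3 to 1810; edgeR adjusted p = 0.00727). In line C22 these genes of 4A and 4D were also on, at 8.39, 4.2 and 8.8 CPM and at 3.95, 1.8 and 3.36 CPM. Such intervals and floors cover counting error only. All 5 genes on 2A, 2B, 2D, 4A and 4D held.

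The other 6 called KNOX genes did not hold in every fit. TraesCS5B01G410600 had 20.7, 11.5 and 9.87 CPM in C40, 1.21, 1.68 and 0.09 in C20 and 1.04, 0.345 and 0.103 in WT (log2 difference 3.78 ± 0.81; edgeR adjusted p = 0.0455). TraesCS5D01G415900 had 11.2, 8.05 and 6.36 CPM in C40 against 0.913, 1.39 and 0.045 (3.4 ± 0.67; edgeR adjusted p = 0.0344). Both lost the call whichever C40 library was left out, and without C20 replicate 1. On chromosomes 1A, 1B and 1D, TraesCS1A01G072700, TraesCS1A01G072800, TraesCS1B01G091700 and TraesCS1D01G075600 had 0 counts in all of C20 and 0.196 to 3.17 CPM in the C40 libraries, at least 11-fold, 45-fold, 43-fold and 33-fold higher (edgeR adjusted p = 0.0461, 0.0395, 0.0384 and 0.0261). Each lost the call without at least 3 of the libraries. For the family, the leave-one-out counts were 7, 5, 5, 5, 12 and 9.

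The KNOX family as a whole was mixed. The 17 that did not pass had log2 differences from -1.17 to 3.21, and the median over the 28 was 0.21. On the group 7 chromosomes, TraesCS7D01G501000, TraesCS7B01G423100 and TraesCS7A01G511800, had lower means in C40 (22.3, 18.7 and 16.9 CPM) than in C20 (45.6, 40.9 and 37.9 CPM) without passing the test. Each of these 3 passed as lower in C40 when C20 replicate 2 was left out (edgeR adjusted p = 0.0142, 0.00421 and 0.00779). The summed level of the family was 275, 240 and 231 CPM in C40 and 268, 182 and 318 in C20, groups that overlap (two-sided exact permutation p = 1). BELL homeobox genes, whose products pair with KNOX proteins, gave 0 higher (5 and 1) and 0 lower (1 and 0) calls among 30 tested with edgeR.

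**Figure D2:**
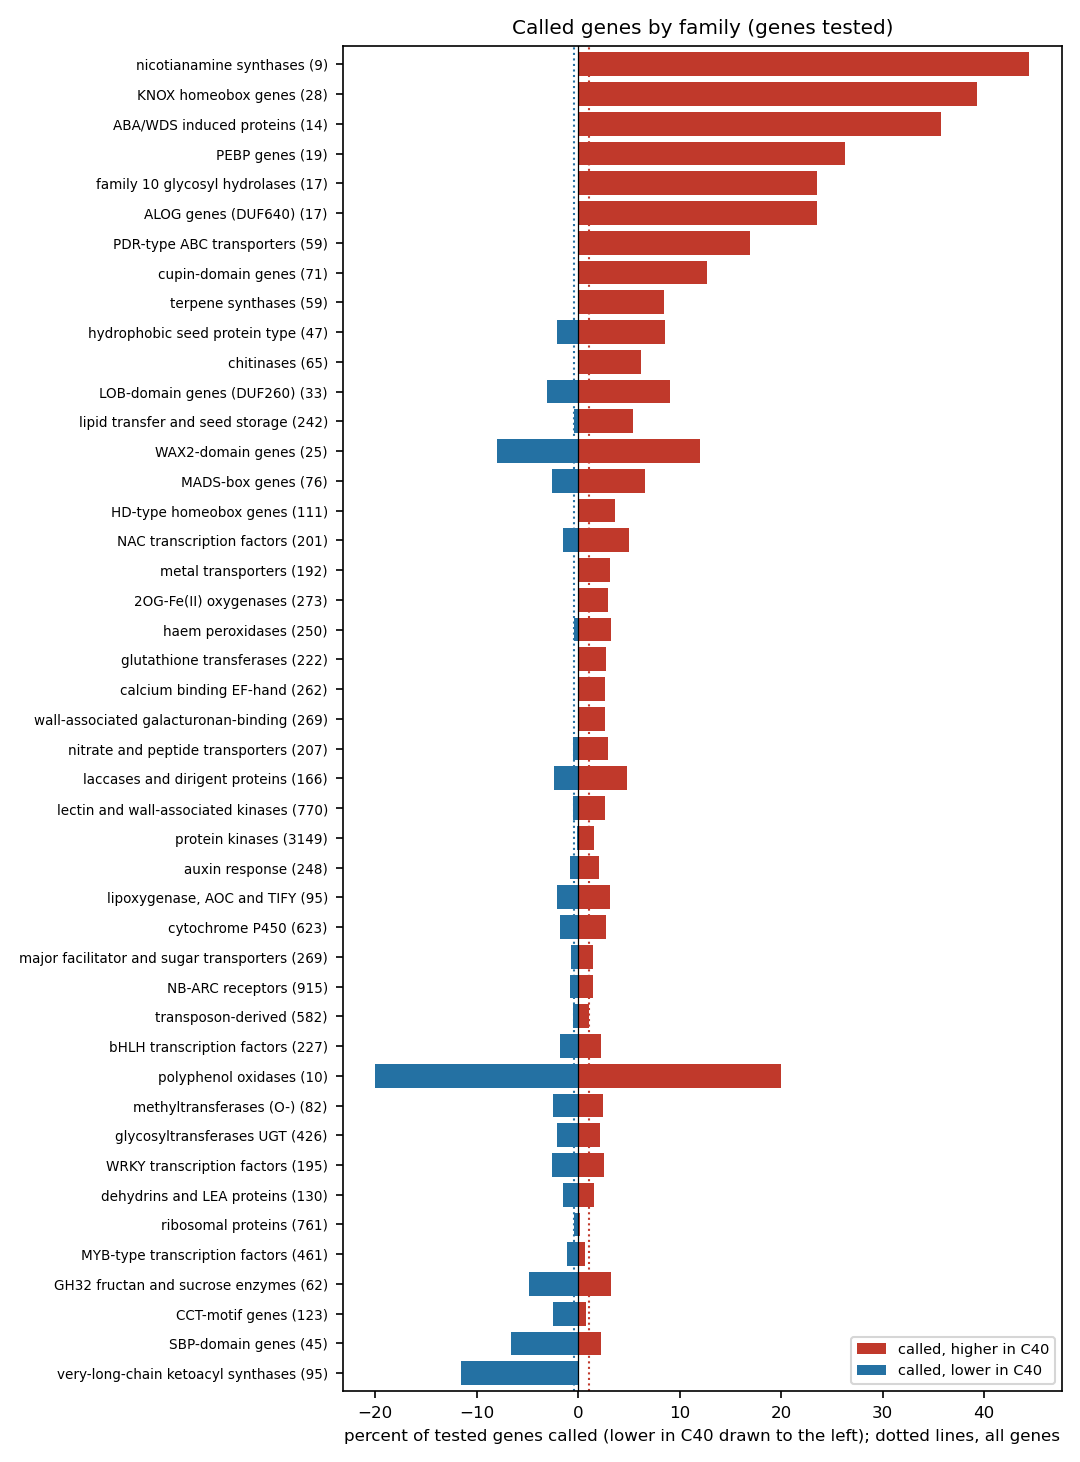
Bars give the percent of each family's tested genes that were called higher (to the right) or lower (to the left) in C40, for families with at least 4 calls; dotted lines mark the 1.05 and 0.416 percent found over all genes. Nicotianamine synthases and KNOX genes (39.3 percent) reach farthest on the higher side, and on the lower side polyphenol oxidases, of which 10 were tested, are followed by very-long-chain ketoacyl synthases (11.6 percent).

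PEBP genes, the phosphatidylethanolamine-binding family of flowering regulators, showed positive differences in all members tested. Of 67 listed, 19 were tested, and 5 passed as higher (26.3 percent, against 1.05 percent of all genes) and 0 as lower (0 and 0). The log2 differences ran from 0.91 to 8.21, with a median of 2.96, and for 16 the C40 libraries lay wholly above those of C20, as they did for 10.3 percent of all genes. The rest had too few counts for the test, and a gene expressed in C40 alone could enter it by that level, so the direction describes the genes tested and not the family. The summed level was 302, 150 and 161 CPM in C40, 39.9, 16.7 and 38 in C20 and 32.2, 25 and 50.2 in WT, a C40 to C20 ratio of 6.49 (two-sided exact permutation p = 0.1, the smallest that 3 against 3 libraries can give). As the family was listed after its values were seen, this p is a description.

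TraesCS3A01G143100 measured 132, 53.4 and 62.6 CPM in C40, 14.5, 6.58 and 10.8 in C20 and 4.4, 3.23 and 6.55 in WT. Its log2 difference was 2.96 ± 0.42 (SE; edgeR adjusted p = 0.0128), and it held. TraesCS3D01G144500 gave 59.3, 28.6 and 31.2 CPM against 7.85, 2.86 and 8.19 (2.66 ± 0.43; edgeR adjusted p = 0.0181). The gene of 7B, TraesCS7B01G013100, behaved otherwise relative to WT: 53.1, 28.8 and 26.4 CPM in C40, 2.08, 0.649 and 4.27 in C20, and 10.4, 6.66 and 10.9 in WT, so that WT lay between the lines (3.97 ± 0.62; edgeR adjusted p = 0.0168). TraesCS7A01G115400 and TraesCS7A01G355100 measured 4.03, 2.45 and 2.36 CPM and 1.26, 0.523 and 0.217 CPM in C40, with 2 counts and 0 counts in all of C20 (edgeR adjusted p = 0.0208 and 0.0401). C40 replicate 1, the histone-poor library, was the highest of its group for all 5 genes. Leave-one-out counts for the family were 4, 4, 3, 1, 5 and 4, and 3 passed with the histone-poor libraries of both lines left out.

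MADS-box genes, which include regulators of the floral transition and of floral organs, gave 5 higher and 2 lower calls among 76 tested of 246 in the table. These were 6.58 and 2.63 percent of those tested, against 1.05 and 0.416 percent of all genes. Their summed level was 577, 443 and 454 CPM in C40, 342, 282 and 315 in C20 and 303, 309 and 350 in WT (two-sided exact permutation p = 0.1, the smallest possible). TraesCS5A01G391700 had 150, 114 and 112 CPM in C40, 51.8, 48.6 and 42.9 in C20 and 29, 26.6 and 36.1 in WT (log2 difference 1.39 ± 0.2; edgeR adjusted p = 0.0137) and held. TraesCS5B01G396600 showed the same order, with 62.7, 45.3 and 49.7 against 30.7, 23.8 and 22.4 CPM, but its call (1.04 ± 0.23; edgeR adjusted p = 0.0498) was lost whichever library was left out. TraesCS2D01G181400 rose from 13.8, 11.1 and 11.3 CPM in C20 to 42.1, 31.4 and 29 in C40 (1.5 ± 0.27; edgeR adjusted p = 0.0258). TraesCS3A01G432900 and TraesCS7B01G158900 were the lower pair, at 0.4, 0.294 and 0.559 against 2.59, 0.708 and 2.25 CPM and at 0.708, 0.425 and 0.373 against 1.83, 1.48 and 1.44 CPM (edgeR adjusted p = 0.0485 and 0.0373). The remaining higher genes were near 0 outside C40. TraesCS2B01G300500 had 0.831, 0.916 and 1.15 CPM in C40 and 0, 0.059 and 0 in C20 (ratio 40.3, interval 10.8 to 338; edgeR adjusted p = 0.0188). TraesCS6A01G259000, with 0.123, 0.131 and 0.341 CPM in C40, had no count in C20 or WT (at least 5-fold; edgeR adjusted p = 0.0464). Leave-one-out counts of higher MADS-box genes were 2, 3, 1, 1, 7 and 2, and of lower ones 1, 0, 0, 0, 4 and 1.

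**Figure D3:**
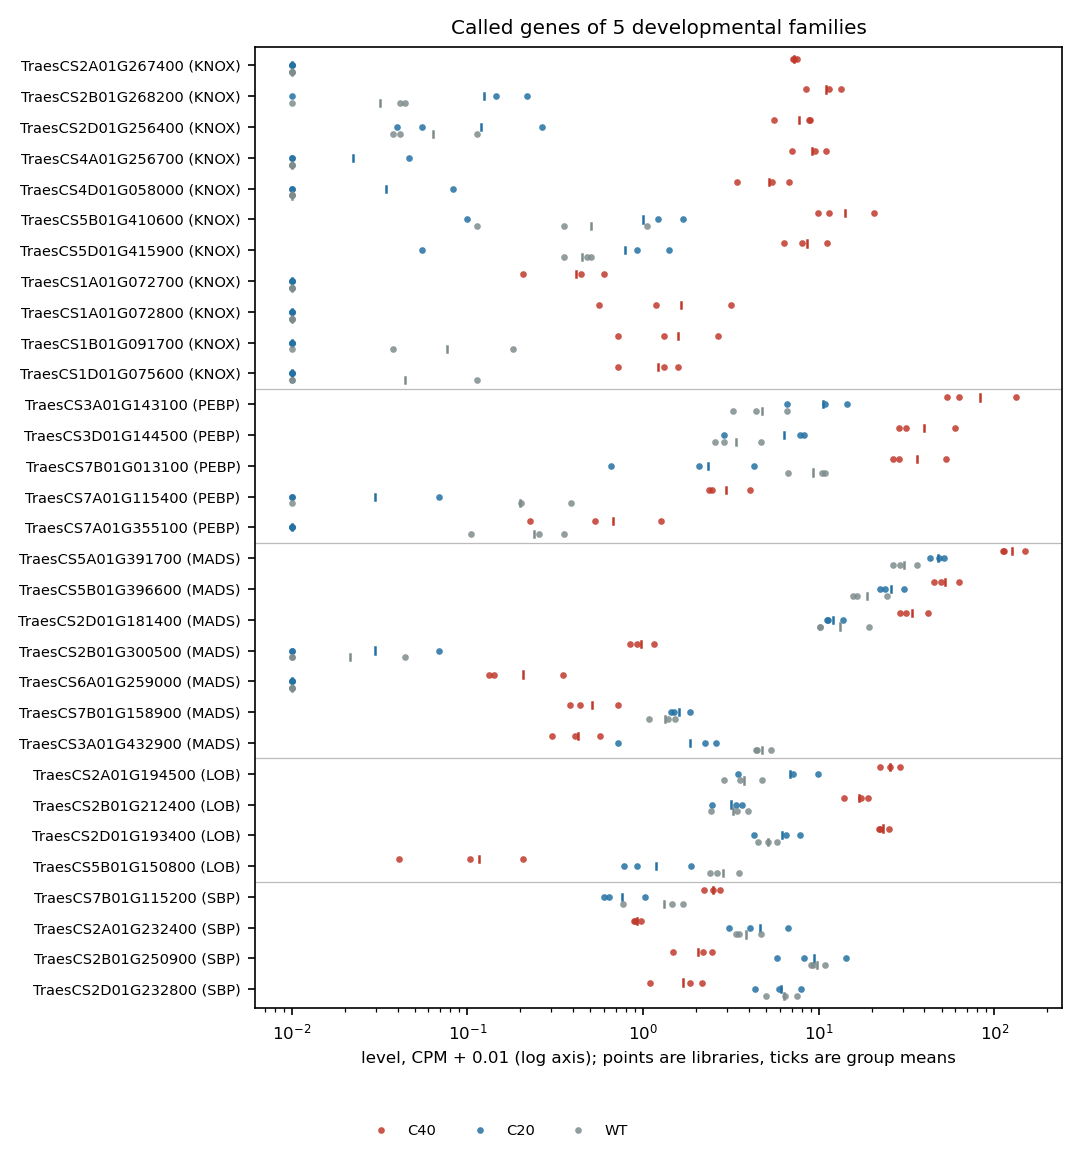
Levels (CPM plus 0.01, log axis) of called KNOX, PEBP, MADS-box, LOB-domain and SBP-domain genes in the C40, C20 and WT libraries; each point is a library and each tick a group mean. The KNOX genes lie between 0 and 1.68 CPM in C20 and between 0.196 and 20.7 CPM in C40, and the SBP genes of 2A, 2B and 2D lie lower in C40 than in C20.

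Other regulators of organ boundaries and plant phase were split between the directions. Genes of the ALOG family are known from rice and Arabidopsis for roles at meristem and organ boundaries. They gave 4 higher (23.5 percent) and 0 lower calls (0 and 0) among 17 tested, with a median log2 difference of 2.39. Their leave-one-out counts were 4, 0, 0, 0, 6 and 0. TraesCS6B01G168300 measured 0.523, 0.949 and 1.83 CPM in C40 and 0.146, 0.177 and 0.225 in C20 (2.58 ± 0.53; edgeR adjusted p = 0.0398). LOB-domain genes, named after a gene of lateral organ boundaries, gave 3 higher and 1 lower call among 33 tested (9.09 and 3.03 percent). TraesCS2B01G212400 had 17.5, 19.1 and 14 CPM in C40, 3.65, 3.36 and 2.47 in C20 and 3.93, 3.42 and 2.43 in WT, so C20 and WT overlapped (2.41 ± 0.24; edgeR adjusted p = 0.00218), and it held. TraesCS2D01G193400 and TraesCS2A01G194500 stood at 25.1, 22.2 and 22 against 6.54, 4.28 and 7.78 CPM and at 29, 25.5 and 22.3 against 7.16, 3.45 and 9.9 CPM (edgeR adjusted p = 0.00948 and 0.0277), of which the former held. The lower LOB-domain gene, TraesCS5B01G150800, had 0.0308, 0.196 and 0.0931 CPM in C40 against 0.913, 1.86 and 0.765 (-3.44 ± 0.56; edgeR adjusted p = 0.0184). Leave-one-out counts of higher LOB-domain genes were 2, 2, 2, 2, 4 and 3, and those of lower ones were 1, 1, 0, 1, 3 and 1.

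SBP-domain transcription factors, a family known for the change from juvenile to adult growth, gave 3 lower calls and 1 higher among 45 tested (6.67 and 2.22 percent). TraesCS2A01G232400 had 0.893, 0.883 and 0.962 CPM in C40, 4.05, 6.67 and 3.06 in C20 and 3.49, 4.65 and 3.39 in WT (log2 difference -2.33 ± 0.28; edgeR adjusted p = 0.00673). TraesCS2B01G250900 had 2.19, 1.47 and 2.45 CPM against 8.25, 14.2 and 5.76 (-2.21 ± 0.32; edgeR adjusted p = 0.0137), and both held. TraesCS2D01G232800 had 2.15, 1.08 and 1.83 CPM against 4.31, 7.91 and 5.94 (-1.84 ± 0.29; edgeR adjusted p = 0.0179). In line C22 the same genes lay above all of these, at 17.7 to 21.1, 31.5 to 37.9 and 24.8 to 28.4 CPM. The family's leave-one-out counts of lower genes were 3, 3, 2, 3, 3 and 4. The higher gene, TraesCS7B01G115200, had 2.74, 2.22 and 2.48 CPM against 1.02, 0.59 and 0.63 (1.73 ± 0.37; edgeR adjusted p = 0.0466) and lost its call whichever library was left out.

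Further developmental families had fewer calls. HD-type homeobox genes gave 4 higher (3.6 percent) and 0 lower calls (4 and 3) among 111 tested, with leave-one-out counts of 1, 2, 0, 0, 8 and 2. The called gene of lowest adjusted p, TraesCS2B01G407600, had 5.32, 3.04 and 5.12 CPM against 0.803, 0.207 and 1.08 (2.71 ± 0.52, edgeR adjusted p = 0.0327). TCP genes, growth regulators, gave 2 lower calls (4.44 percent) among 45 tested, with leave-one-out counts of 0, 1, 0, 0, 2 and 0. Of these, TraesCS5D01G516300 had 6.19, 6.9 and 6.27 CPM against 11.6, 9.68 and 15.9 (-0.94 ± 0.19; edgeR adjusted p = 0.0385). CCT-motif genes, the family of CONSTANS, gave 1 higher and 3 lower calls among 123 tested (0.813 and 2.44 percent). TraesCS2B01G140300 had 1.63, 2.22 and 1.4 CPM in C40, 7.05, 6.85 and 8.05 in C20 and 17.2, 21.3 and 14.8 in WT, with line C22 at 1.96, 2.84 and 2.63, close to C40 (-2.06 ± 0.24; edgeR adjusted p = 0.00551), and it held. The leave-one-out counts of lower CCT-motif genes were 1, 2, 1, 2, 11 and 3. YABBY genes, which pattern lateral organs, gave 0 higher (6 and 4) and 0 lower (0 and 0) calls among 16 tested with edgeR, at log2 differences of -0.95 to 7.03.

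Genes of the plant surface were among those lower in C40. Very-long-chain ketoacyl synthases, which start each round of fatty acid elongation for waxes and other surface lipids, gave 11 lower and 0 higher calls (4 and 2) among 95 tested of 139 in the table, or 11.6 percent against 0.416 percent of all genes, with a median log2 difference of -0.97. Their summed level was 493, 1040 and 661 CPM in C40, 1620, 1250 and 1220 in C20 and 1660, 1790 and 2230 in WT, so that every C40 library lay below every C20 library (two-sided exact permutation p = 0.1, the smallest possible). TraesCS4D01G242200 had 17.8, 18.1 and 11.1 CPM in C40, 52.8, 33.9 and 62.5 in C20 and 104, 120 and 175 in WT (-1.67 ± 0.31; edgeR adjusted p = 0.0301). TraesCS2A01G507700 had 0.0616, 0.131 and 0.031 CPM against 1.24, 1.92 and 1.03 (-4.18 ± 0.6; edgeR adjusted p = 0.0139). TraesCS5A01G076500 had 0.215, 0.622 and 0.217 CPM against 3.18, 4.72 and 2.2 (-3.26 ± 0.56; edgeR adjusted p = 0.0226). For each of these genes WT was above C20. The leave-one-out counts were 3, 4, 0, 3, 21 and 7, so without C40 replicate 3 no gene of the family passed.

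WAX2-domain genes, whose Arabidopsis relatives act late in the making of cuticular alkanes, went both ways: 3 higher and 2 lower among 25 tested (12 and 8 percent). A pair of neighbours on 1A differed in direction. TraesCS1A01G150900 (258871019 to 258881397) had 35.4, 17.4 and 21.6 CPM in C40, 3.29, 2.45 and 3.51 in C20 and 12.5, 8.07 and 20.2 in WT (3.01 ± 0.39; edgeR adjusted p = 0.00948), and it held. TraesCS1A01G150800 (258857885 to 258862801) had 0.523, 1.08 and 0.497 CPM in C40, 24.6, 2.01 and 10.6 in C20 and 40.3, 50.7 and 37.7 in WT (-4.14 ± 0.73; edgeR adjusted p = 0.0247). The latter call was lost whichever C40 library was left out, and without C20 replicate 1. The other lower gene, TraesCS2B01G402100, had 0.646, 0.752 and 0.683 against 3.58, 6.4 and 2.83 CPM (-2.62 ± 0.49; edgeR adjusted p = 0.0289). On 1B and 1D, TraesCS1B01G168500 and TraesCS1D01G147900 were also higher, at 30.1, 11 and 15.1 against 2.15, 1.68 and 1.8 CPM and at 2.43, 2.49 and 2.42 against 0.183, 0.118 and 0.63 CPM (edgeR adjusted p = 0.0229 and 0.0335). Leave-one-out counts were 1, 2, 1, 1, 4 and 2 for higher and 0, 0, 0, 0, 3 and 2 for lower genes. Near-identical copies can share reads, so the split between such neighbours, and between the copies of the A, B and D subgenomes, carries that uncertainty.

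ABA/WDS induced proteins are small proteins known from other plants to accumulate with abscisic acid, drought and ripening. They gave 5 higher (35.7 percent) and 0 lower calls (0 and 0) among 14 tested of 20, with a median log2 difference of 2.09. Their summed level was 2130, 2010 and 1730 CPM in C40, 1070, 1160 and 902 in C20 and 1580, 1970 and 1840 in WT. By these sums C20 was the group that stood apart, and WT overlapped C40. By the mean log2 level of the family, C40 lay above WT, at 4.78, 4.38 and 4.41 against 2.96, 2.85 and 3.42. C20 was lowest, at 2.5, 1.88 and 2.18. TraesCS3B01G578200 had 179, 111 and 140 CPM in C40, 25.3, 9.98 and 30.2 in C20 and 48.3, 46.4 and 57.9 in WT (2.71 ± 0.43; edgeR adjusted p = 0.0179). TraesCS3D01G517100 measured 296, 218 and 228 CPM against 92.9, 26.2 and 70.6, with WT at 160, 181 and 202 (1.97 ± 0.43; edgeR adjusted p = 0.0484). TraesCS3D01G517400 had 15.4, 9.58 and 12.9 CPM against 2.78, 1.51 and 3.01, with WT at 2.61, 1.88 and 3.87 (2.38 ± 0.41; edgeR adjusted p = 0.0226). An on-off pattern was seen in TraesCS3B01G578500, with 3.54, 2.65 and 3.63 CPM in C40 and no count in C20 (at least 91-fold; edgeR adjusted p = 0.00948), and in TraesCS3A01G509800, with 13.9, 4.09 and 9.84 against 0.11, 0 and 0 CPM (ratio 261, interval 89 to 1270; edgeR adjusted p = 0.00408), and both held. WT was close to C20 for these, at 0 to 0.137 CPM. Leave-one-out counts were 3, 4, 2, 2, 7 and 4.

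Some genes of metal handling were higher in C40. Nicotianamine synthases make the chelator that moves iron and zinc within the plant. They gave 4 higher (44.4 percent) and 0 lower calls (1 and 1) among 9 tested of 29. The rest had too few counts for the test, so the share does not describe the family. TraesCS3B01G068500 had 1.72, 1.11 and 1.71 CPM in C40, 0.073, 0 and 0 in C20 and 0.907, 0.659 and 0.754 in WT (ratio 63.5, interval 17.3 to 530; edgeR adjusted p = 0.0101), and it held. TraesCS5A01G552000 had 2.62, 0.72 and 1.43 CPM in C40, 0.073, 0 and 0 in C20 and 1.1, 0.659 and 1.13 in WT (ratio 67, interval 18.2 to 559; edgeR adjusted p = 0.0267). For both, C20 lay below C40 and WT. TraesCS6A01G163100 had 2.49, 1.31 and 4.69 against 0.0365, 0.059 and 0 CPM (ratio 79.5, interval 26.9 to 388; edgeR adjusted p = 0.0189), and TraesCS6D01G148200 had 1.42, 0.818 and 1.18 CPM against no count (at least 31-fold; edgeR adjusted p = 0.0299). The family's sum was 132, 151 and 208 CPM in C40 and 101, 35 and 166 in C20, groups that overlap (two-sided exact permutation p = 0.3). Leave-one-out counts were 2, 3, 1, 1, 4 and 3.

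Among 192 metal transporter genes tested, 6 were higher in C40 (3.12 percent, against 1.05 percent of all genes) and 0 lower (9 and 1), and 5 of the 6 were ZIP zinc transporters. TraesCS2A01G424200 had 13.7, 7.82 and 11 CPM in C40, 2.56, 1.95 and 2.38 in C20 and 11.3, 9.23 and 8.13 in WT (2.24 ± 0.24; edgeR adjusted p = 0.00329), and it held. TraesCS1A01G125500 had 31.7, 24.5 and 28 CPM against 8.73, 3.36 and 9.09, with WT at 32.8, 34.6 and 22.2 (1.99 ± 0.35; edgeR adjusted p = 0.0252). TraesCS7A01G420600 had 2.8, 2.72 and 6.89 CPM against 0.11, 0.0295 and 0.315, with WT at 6.16, 4.55 and 5.11 (4.86 ± 0.67; edgeR adjusted p = 0.0117). TraesCS7B01G321200 and TraesCS2B01G443800 showed the same order of groups (edgeR adjusted p = 0.0281 and 0.0287). For all 5 ZIP genes C20 lay below both C40 and WT. Leave-one-out counts of higher metal transporters were 3, 5, 2, 1, 6 and 11, and of lower ones 1, 0, 0, 0, 4 and 0.

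PDR-type ABC transporters, which export hormones, surface compounds and toxins, gave 10 higher (16.9 percent) and 0 lower calls (1 and 1) among 59 tested of 80. The log2 differences of those called were 1.59 to 5.41. TraesCS5B01G449500 had 19.7, 23.4 and 28.9 CPM in C40, 3.47, 1.42 and 6.39 in C20 and 2.91, 2.01 and 2.98 in WT (2.68 ± 0.45; edgeR adjusted p = 0.021). TraesCS5A01G016200 had 8.13, 6.51 and 8.2 against 2.23, 2.39 and 2.97 CPM (1.59 ± 0.21; edgeR adjusted p = 0.0108) and held, whereas leave-one-out counts for the family were 5, 4, 1, 1, 11 and 7. The family's sum did not separate the lines (662, 690 and 654 against 682, 583 and 522 CPM). Potassium transporters of the K+ type gave 3 higher calls (5 percent) among 60 tested (leave-one-out counts 2, 3, 1, 0, 5 and 2). TraesCS7A01G071000 and TraesCS7D01G066200 had 9.02, 2.09 and 3.35 CPM and 7.82, 2.19 and 1.83 CPM in C40 and no count in C20 or WT, at least 135-fold and 111-fold (edgeR adjusted p = 0.0273 and 0.0226). Nitrate and peptide transporters gave 6 higher and 1 lower call among 207, or 2.9 and 0.483 percent (leave-one-out counts of higher genes 6, 5, 2, 1, 6 and 5). TraesCS2D01G348600 had 5.79, 4.87 and 4.41 against 0.73, 0.649 and 1.39 CPM (2.45 ± 0.33; edgeR adjusted p = 0.0107), and TraesCS4A01G287900, the lower one, had 1 count in each C40 library and 0.548, 1 and 1.08 CPM in C20 (ratio of C20 to C40 27.8, interval 9.13 to 138; edgeR adjusted p = 0.00614). Both of these held.

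**Figure D4:**
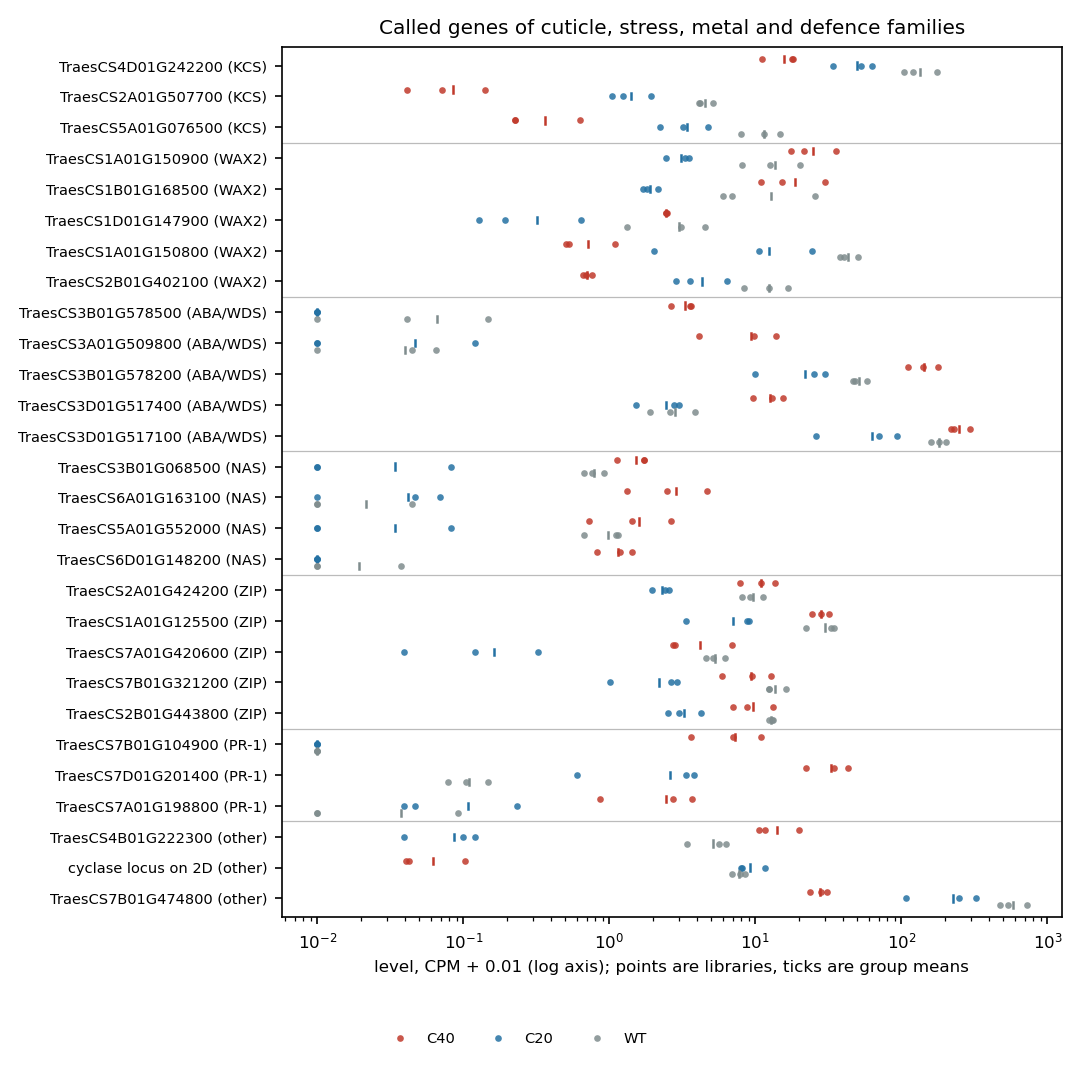
Levels (CPM plus 0.01, log axis) of called genes of surface lipids, ABA/WDS proteins, nicotianamine synthesis, zinc transport and PR-1 type, and of 3 genes of large difference, in the C40, C20 and WT libraries; each point is a library and each tick a group mean. The ZIP genes lie lower in C20 than in C40 and WT, whereas the 3 ketoacyl synthases (KCS) are highest in WT and lowest in C40; NAS marks nicotianamine synthases.

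Pathogenesis-related families differed in their share of calls. PR-1 type genes, secreted proteins used as markers of salicylic acid responses, gave 3 higher calls (12 percent, against 1.05 percent of all genes) and 0 lower (0 and 0) among 25 tested of 76, with a median log2 difference of 2.27 and 15 genes whose C40 libraries lay wholly above those of C20, as they did for 10.3 percent of all genes. The sum was 406, 497 and 561 CPM in C40, 99, 49.1 and 161 in C20 and 6.02, 7.13 and 17.5 in WT (two-sided exact permutation p = 0.1 between the lines, the smallest possible). TraesCS7B01G104900 had 11, 3.63 and 6.99 CPM in C40 and no count in C20 or WT, at least 202-fold higher (edgeR adjusted p = 0.0111), and held. TraesCS7D01G201400 had 34.4, 22.3 and 42.8 CPM in C40, 3.36, 0.59 and 3.78 in C20 and 0.137, 0.0942 and 0.0686 in WT (3.7 ± 0.63; edgeR adjusted p = 0.0215). TraesCS7A01G198800 had 2.74, 0.851 and 3.66 CPM against 0.0365, 0.0295 and 0.225 (4.71 ± 0.97; edgeR adjusted p = 0.0403). Leave-one-out counts were 2, 3, 1, 1, 5 and 9.

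Chitinases, which cut fungal cell walls, gave 4 higher (6.15 percent) and 0 lower calls (2 and 1) among 65 tested, with a median log2 difference of 0.88. Leave-one-out counts were 3, 3, 3, 1, 10 and 3 for higher and 0, 0, 0, 0, 5 and 0 for lower genes. Beta-glucanases gave 1 higher and 0 lower calls (3 and 1) among 133 tested, and thaumatins, barwins and Bet v 1 proteins 1 higher and 0 lower (8 and 4) among 103, or 0.752 and 0.971 percent, near the share over all genes. Without C20 replicate 2, 6 beta-glucanases and 11 of the latter group were lower in C40, and 4 and 5 were higher. TraesCS1A01G250000 had 0.8, 1.31 and 2.45 CPM in C40 and no count in C20 (at least 42-fold; edgeR adjusted p = 0.0162), and it held. Terpene synthases gave 5 higher (8.47 percent) and 0 lower calls (3 and 1) among 59 tested (leave-one-out counts 3, 1, 0, 1, 5 and 3, with 4 lower genes without C20 replicate 2). TraesCS2D01G029600 had 3.6, 7 and 8.2 CPM in C40, 0.402, 0.148 and 0.72 in C20 and 0 in WT (3.92 ± 0.57; edgeR adjusted p = 0.0182). The family's sum went the other way relative to WT, with 184, 263 and 278 CPM in C40, 256, 114 and 338 in C20 and 515, 534 and 555 in WT. A lipoxygenase, TraesCS4D01G035200, of the enzymes that begin oxylipin and jasmonate synthesis, had 124, 97.7 and 94.1 CPM against 35.3, 18.9 and 26.4, with WT at 26.2, 26.5 and 14.3 (1.97 ± 0.29; edgeR adjusted p = 0.0148) and held, and another, TraesCS6D01G010100, was lower at 0.4, 0.72 and 0.466 against 7.78, 1.51 and 33.1 CPM (-4.73 ± 0.92; edgeR adjusted p = 0.0342). A catalase, TraesCS6D01G048300, an enzyme that breaks down hydrogen peroxide, had 1040, 557 and 597 CPM against 250, 229 and 186, with WT at 115, 121 and 179 (1.72 ± 0.32; edgeR adjusted p = 0.0286).

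Defence regulators and receptors moved in both directions. WRKY factors gave 5 higher and 5 lower calls among 195 tested, or 2.56 percent each. TraesCS3A01G116200 had 4.62, 3.34 and 5.25 CPM in C40, 0.365, 0.354 and 0.135 in C20 and 0.192, 0.0942 and 0.137 in WT (3.9 ± 0.41; edgeR adjusted p = 0.00303), and it held. On 1D, the 3 genes TraesCS1D01G300500, TraesCS1D01G300600 and TraesCS1D01G300700, between 398550267 and 398853105, were all lower in C40, at 0.246, 0.327 and 0.279 against 2.45, 1.09 and 1.62 CPM, at 0.0308, 0 and 0.0931 against 0.84, 0.561 and 0.405, and at 1.32, 2.55 and 1.24 against 7.96, 3.95 and 5.35 (edgeR adjusted p = 0.0261, 0.0342 and 0.0469). TraesCS5D01G145800 and TraesCS5B01G145300 were lower too, at 1.23, 1.77 and 1.09 against 14.9, 4.1 and 18.8 CPM and at 1.32, 1.37 and 1.15 against 17.2, 2.92 and 17.1 CPM (edgeR adjusted p = 0.0287 and 0.0338). For the last pair C20 replicate 2 lay well below the other C20 libraries. The family sum followed that library, with 1600, 1790 and 1700 CPM in C40 and 2750, 822 and 3940 in C20. Without C20 replicate 2, 45 WRKY genes were lower in C40; the leave-one-out counts were 0, 1, 0, 0, 45 and 2 for lower and 2, 3, 1, 2, 10 and 3 for higher genes.

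NB-ARC genes, which encode intracellular immune receptors, gave 13 higher and 7 lower calls among 915 tested, or 1.42 and 0.765 percent, near the 1.05 and 0.416 percent over all genes. TraesCS7B01G474800 had 23.5, 30.7 and 28.3 CPM in C40, 246, 107 and 322 in C20 and 476, 534 and 719 in WT (-3.03 ± 0.4; edgeR adjusted p = 0.0101). TraesCS7A01G568400 had 0.215, 0.262 and 0.186 CPM against 6.76, 5.16 and 36.8 (-6.17 ± 0.87; edgeR adjusted p = 0.0131). TraesCS5B01G569300 had 1.97, 2.45 and 2.83 CPM against 8.07, 7.32 and 6.97 (-1.62 ± 0.19; edgeR adjusted p = 0.00602). The first and the last of these held, and for all 3 WT lay nearer to C20 than to C40. Leave-one-out counts were 4, 4, 2, 2, 28 and 10 for higher and 3, 5, 2, 3, 28 and 5 for lower genes. Protein kinases gave 49 higher and 4 lower calls among 3149 tested, or 1.56 and 0.127 percent, with leave-one-out counts of 19, 21, 8, 8, 89 and 56 for the higher and 1, 2, 1, 1, 68 and 4 for the lower genes. Receptor-type genes with a wall-associated galacturonan-binding domain gave 7 higher (2.6 percent) and 0 lower calls (4 and 0) among 269 tested. Leave-one-out counts of the higher genes were 5, 3, 2, 2, 8 and 6.

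Genes of mitochondrial retrograde signalling did not separate the lines in a uniform way. Of 13 alternative oxidase genes tested with edgeR, 0 passed as higher (2 and 0) and 0 as lower (0 and 0), at log2 differences of -1.01 to 1.28. Their sum was 240, 202 and 215 CPM in C40, 308, 67.7 and 478 in C20 and 134, 134 and 161 in WT (two-sided exact permutation p = 0.7), so the C20 libraries spread on both sides of C40. TraesCS2B01G459000 had 25, 33.2 and 35.1 CPM in C40 and 66.3, 13.6 and 108 in C20 (-1.01 ± 0.57; edgeR adjusted p = 0.431), with WT at 4.48, 7.44 and 9.43. Without C20 replicate 2 it passed as lower in C40 (-1.48; edgeR adjusted p = 0.0424). TraesCS2B01G459300 had 6, 7.33 and 5.71 CPM against 3.07, 1.86 and 2.92 (1.28 ± 0.4; edgeR adjusted p = 0.135). Mitochondrial carriers gave 0 higher (4 and 1) and 0 lower (6 and 2) calls among 142 tested with edgeR.

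NAC transcription factors gave 10 higher and 3 lower calls among 201 tested, with a median log2 difference of 0.24. Their shares of 4.98 and 1.49 percent were above the 1.05 and 0.416 percent over all genes. TraesCS6A01G108300 had 4.68, 1.57 and 1.68 CPM in C40 and no count in C20 (at least 74-fold; edgeR adjusted p = 0.0117), with WT at 0.137, 0.0628 and 0.0686, and it held. TraesCS7A01G068200 had 1.69, 1.93 and 1.4 CPM against 0.073, 0.0885 and 0.09 (4.26 ± 0.7; edgeR adjusted p = 0.019). On 5A, the neighbours TraesCS5A01G143100 and TraesCS5A01G143200 were both higher, at 1.72, 2.19 and 2.08 against 0.402, 0.443 and 0.585 CPM and at 1.32, 3.34 and 3.17 against 0.11, 0.059 and 0.225 CPM (edgeR adjusted p = 0.0292 and 0.0327). The lower genes were TraesCS7D01G302000, TraesCS1B01G272600 and an unnamed locus on 5D (378797129 to 378799558), of which the last had 2.52, 2 and 1.68 CPM in C40, 8.11, 6.79 and 7.29 in C20 and 2.31, 3.45 and 1.37 in WT (-1.84 ± 0.32; edgeR adjusted p = 0.0233). Among NAC genes that did not pass, TraesCS5D01G481200 had 62.5, 86.7 and 77.1 CPM in C40 and 127, 32 and 219 in C20 (-0.74 ± 0.5; edgeR adjusted p = 0.521), and without C20 replicate 2 it passed as lower (-1.2; edgeR adjusted p = 0.0325). Leave-one-out counts were 5, 4, 5, 1, 11 and 9 for higher and 1, 0, 0, 0, 18 and 1 for lower genes.

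**Figure D5:**
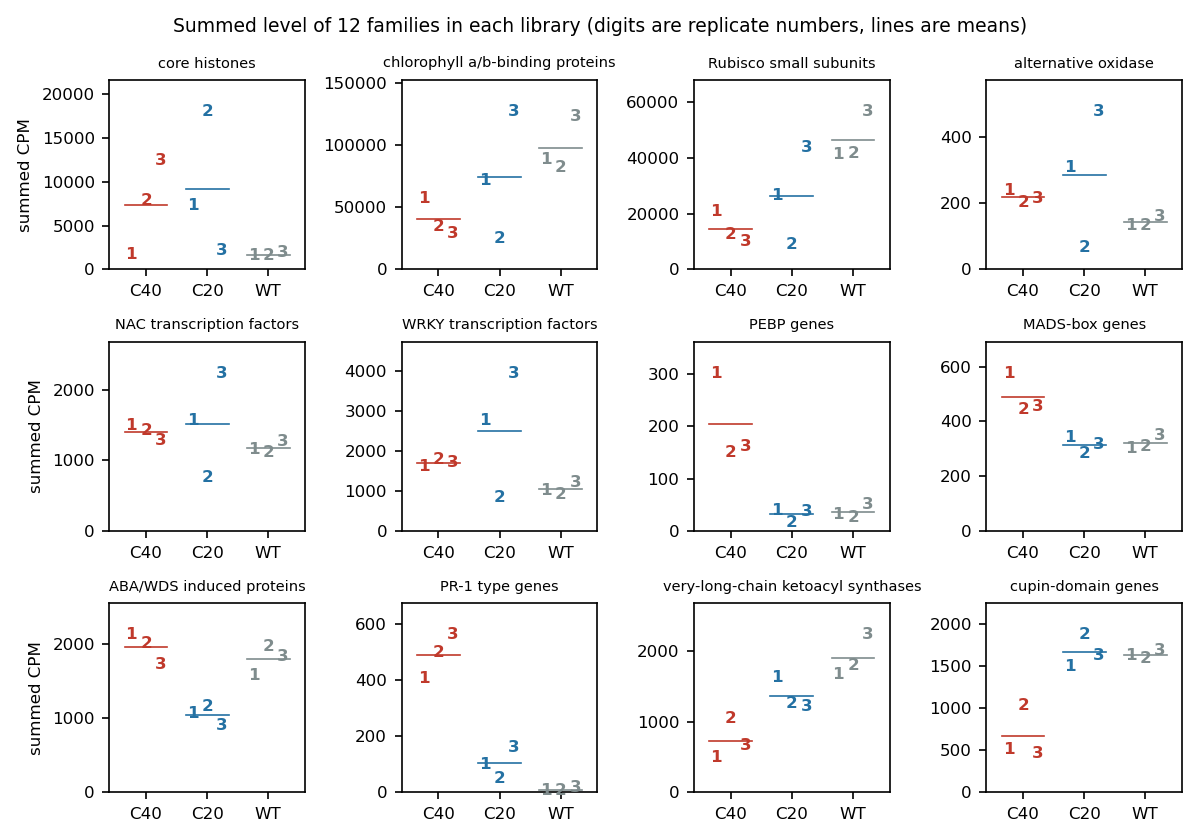
Summed level (CPM) of 12 gene families in each library of C40, C20 and WT; the digits are replicate numbers. PEBP and PR-1 sums lie wholly higher in C40 than in C20 and ketoacyl synthase sums wholly lower. The alternative oxidase sums of C20 spread on both sides of C40, and the histone sums of the lines overlap.

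Enzymes of specialised metabolism and of the cell wall were called in both directions. Cytochrome P450 genes gave 17 higher and 11 lower calls among 623 tested (leave-one-out counts 6, 7, 2, 3, 24 and 16 for higher, 5, 8, 2, 3, 43 and 6 for lower), and glycosyltransferases of the UGT type gave 9 and 9 among 426 (5, 6, 3, 3, 12 and 10, and 3, 5, 1, 2, 43 and 7). These were 2.73 and 1.77 percent of the P450 genes and 2.11 percent of the UGT genes in each direction. TraesCS7B01G253700, a P450, had 17.5, 4.51 and 7.79 CPM in C40, 0, 0 and 0.18 in C20 and 0 in WT (7.53 ± 0.94; edgeR adjusted p = 0.0133). TraesCS5B01G334000, another P450, had 0.739, 1.05 and 0.621 CPM in C40, 9.57, 19.6 and 10 in C20 and 54.2, 28.2 and 36.1 in WT (-4.02 ± 0.54; edgeR adjusted p = 0.0111). Both held. A 2OG-Fe(II) oxygenase, TraesCS4D01G339800, had 111, 35.2 and 46.2 CPM against 4.67, 4.34 and 5.53 (3.73 ± 0.44, edgeR adjusted p = 0.00614) and held. Its family gave 8 higher (2.93 percent) and 0 lower calls (12 and 4) among 273. Leave-one-out counts were 6, 5, 5, 1, 9 and 9 for higher and 0, 0, 0, 0, 12 and 1 for lower genes. Polyphenol oxidases, the browning enzymes, split into 2 higher and 2 lower of 10 tested (20 percent each). Of these, TraesCS2D01G468200 had 31.8, 7.49 and 12 CPM in C40, 0.256, 0.266 and 0.225 in C20 and 1.02, 1.48 and 1.78 in WT (6.07 ± 0.6; edgeR adjusted p = 0.00218), and it held. Leave-one-out counts for this family were 2, 1, 1, 1, 2 and 2 for higher and 0, 1, 0, 0, 2 and 1 for lower genes.

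The lowest adjusted p of all belonged to an unnamed locus on 2D (301360803 to 301364593) with a squalene-hopene cyclase domain, the fold of enzymes that make triterpenes and sterols. It had 0.0308, 0.0327 and 0.0931 CPM in C40, 8.14, 11.6 and 7.96 in C20 and 6.87, 7.79 and 8.47 in WT, and line C22, at 8.26, 11.5 and 10.3, was level with C20 (-7.36 ± 0.37; edgeR adjusted p = 3.59e-05). The gene held, and of the 4 groups C40 alone was near 0. TraesCS4B01G222300, with the domain of the alpha subunit of the general transcription factor TFIIF, differed between the lines in the opposite direction. It had 19.9, 10.5 and 11.6 CPM in C40, 0.11, 0.0295 and 0.09 in C20 and 6.27, 3.39 and 5.59 in WT (7.51 ± 0.49, edgeR adjusted p = 0.000235), and it held. Line C22 was low like C20, at 0.289, 0.347 and 0.473 CPM. Among other genes near 0 in C40, a pyridoxal-dependent decarboxylase, TraesCS6D01G014100, had 1, 1 and 0 counts there and 2.81, 0.974 and 3.33 CPM in C20 (ratio of C20 to C40 105, interval 28.6 to 873; edgeR adjusted p = 0.00653), and it held. A helix-loop-helix gene, TraesCS5A01G533900, had the same counts in C40 and 4.45, 0.738 and 6.75 CPM in C20 (ratio 169, interval 46.5 to 1410; edgeR adjusted p = 0.0142). Neighbouring O-methyltransferase genes on 1D, TraesCS1D01G338000 and TraesCS1D01G338100, had 0.4, 0.164 and 0.031 against 35.6, 2.6 and 35 CPM and 0.277, 0.294 and 0 against 13.8, 1.15 and 21.1 CPM (edgeR adjusted p = 0.0297 and 0.0322).

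On the higher side, the BURP-domain gene TraesCS7D01G021100, of a plant family of secreted proteins, had 269, 48.3 and 29.1 CPM in C40, 0, 0.0295 and 0.135 in C20 and 0.055, 0 and 0 in WT (11.09 ± 1.21; edgeR adjusted p = 0.00391). C40 replicate 1 was the highest library, and the gene held. It was the only call among 12 BURP-domain genes tested, with 0 lower (1 and 0). Family 10 glycosyl hydrolases, which include xylanases of the grass cell wall, gave 4 higher (23.5 percent) and 0 lower calls (0 and 0) among 17 tested of 34. Their leave-one-out counts were 3, 3, 3, 1, 3 and 3. TraesCS5D01G448800 had 7.36, 7.62 and 21.3 CPM in C40 and no count in any library of C20, WT or C22 (at least 338-fold; edgeR adjusted p = 0.0229), so it was detected in C40 alone. TraesCS3D01G041600 had 30.2, 7.52 and 15.4 against 0.11, 0.177 and 0 CPM (7.35 ± 0.82; edgeR adjusted p = 0.00485), and it held. A GH32 gene, TraesCS4A01G485000, of the invertase and fructan enzyme family, had 49.9, 15 and 18.8 CPM against 0.73, 0.0295 and 0.27 (6.36 ± 0.91; edgeR adjusted p = 0.0133) and held, and TraesCS2A01G295400 of the same family was lower at 2.4, 8.54 and 4.41 against 40.8, 34.2 and 17 (-2.58 ± 0.47; edgeR adjusted p = 0.0278). A jacalin-type lectin, TraesCS5A01G506900, had 20.3, 14 and 12.7 CPM against 1.79, 0.413 and 1.39 (3.72 ± 0.45; edgeR adjusted p = 0.00662) and held, and a dirigent and jacalin protein, TraesCS7D01G001300, had 2.55, 9.88 and 4.25 against 115, 65.7 and 228 (-4.61 ± 0.75; edgeR adjusted p = 0.0182). Cupin-domain genes showed how called members and the family total can part: 9 were higher (12.7 percent) and 0 lower (5 and 4) among 71 tested. Yet their sum was 517, 1030 and 468 CPM in C40 and 1500, 1880 and 1630 in C20, a ratio of 0.403 (two-sided exact permutation p = 0.1, the smallest possible). Leave-one-out counts were 5, 2, 0, 0, 10 and 6 for higher and 0, 2, 0, 0, 4 and 0 for lower genes.

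Genes of the hydrophobic seed protein type gave 4 higher and 1 lower call among 47 tested, or 8.51 and 2.13 percent. Leave-one-out counts were 5, 1, 1, 0, 4 and 5 for higher and 0, 1, 0, 0, 2 and 1 for lower genes.

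Some genes were on in C40 and off in C20. With at most 3 counts over a line counted as off and at least 1 CPM in each library as on, 42 genes (0.0562 percent) were on in C40 and off in C20, and 0 were on in C20 and off in C40. The 0 depends on both cutoffs, which TraesCS6D01G014100 and the cyclase locus on 2D narrowly missed. Without the CPM cutoff, 66 genes called higher had no count in C20 and 7 called lower had no count in C40. Libraries also differed in how many genes had no count. Over all genes compared, this was 1.72, 0.325 and 0.277 percent in C40 and 1.05, 1.46 and 4.02 percent in C20. The part of this in the uneven on-off counts was not tested. Of the 42, 38 passed the test, 25 carried a Pfam description and 32 had a WT mean of at most 0.2 CPM, while 1 had at least 1 CPM in each WT library. Among them, TraesCS6D01G004500, without a description, had 51, 8.01 and 12 CPM in C40, no count in C20 and 0.055, 0.0314 and 0.171 CPM in WT (at least 668-fold; edgeR adjusted p = 0.0117). An unnamed locus on 4A (606262557 to 606334091) had 39.3, 8.34 and 7.51 CPM in C40 and no count in C20 or WT (at least 517-fold; edgeR adjusted p = 0.0203). A wall-associated receptor kinase on unplaced sequence, TraesCSU01G060500, had 1.66, 20.3 and 15.2 CPM and no count in C20 (at least 339-fold; edgeR adjusted p = 0.0117), with line C22 at 6.97, 4.52 and 6.05. A transferase-family gene, TraesCS3B01G026300, had 37.5, 2.42 and 9.69 CPM against 0, 0.0295 and 0 (ratio 1400, interval 252 to 55500; edgeR adjusted p = 0.0188), and a rhodanese-domain gene, TraesCS7A01G151200, had 21.7, 2.62 and 6.12 against 0.073, 0 and 0.045 (ratio 287, interval 97.8 to 1390; edgeR adjusted p = 0.0104). The dehydrogenase gene TraesCS4A01G202300 had 11, 3.6 and 7.92 CPM and no count in C20 or WT (at least 211-fold; edgeR adjusted p = 0.0111). C40 replicate 1 was the highest C40 library for all 6 genes except TraesCSU01G060500, for which it was the lowest. All except the 4A locus and TraesCS3B01G026300 held. Of all called genes, 155 were among the 11223 tested loci that carry no TraesCS identifier.

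Housekeeping families had few calls with all libraries. With edgeR, core histones gave 0 higher (4 and 0) and 0 lower (0 and 0) calls among 428 tested, and cyclins 0 higher (3 and 1) and 0 lower (1 and 0) among 128. Chlorophyll a/b-binding proteins gave 0 higher (0 and 0) and 0 lower (15 and 5) among 96, and Rubisco small subunits 0 higher (0 and 0) and 0 lower (5 and 2) among 13. Ribosomal proteins gave 1 higher and 3 lower calls among 761 (0.131 and 0.394 percent), and photosystem subunits 1 and 1 among 115 (0.87 percent each). DESeq2 called 73 ribosomal and 10 photosystem genes lower, and without C20 replicate 2 edgeR called 30 and 24 lower. For 90 of the 761 ribosomal genes the C40 libraries lay wholly below those of C20. This is a larger share than the 3958 of 74741 (5.3 percent) over all genes. Ribosomal protein genes summed to 18800, 26800 and 29000 CPM in C40 and to 27300, 40900 and 29800 in C20, which overlap (two-sided exact permutation p = 0.2). Core histones summed to 1750, 7830 and 12400 CPM in C40 and to 7310, 18000 and 2160 in C20 (two-sided exact permutation p = 0.8), against 1530 to 1910 in WT. Pollen Ole e 1 type proteins, listed as a sign of reproductive tissue, gave 0 higher (0 and 0) and 0 lower (5 and 0) calls among 49 with edgeR, and their sums were 121, 755 and 252 CPM in C40, 813, 1900 and 1010 in C20 and 1110, 687 and 123 in WT (two-sided exact permutation p = 0.1, the smallest possible). The part of such tissue markers in the differences between the lines was not tested.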

How the data were processed

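Gene-level counts and FPKM of 12 shoot RNA-seq libraries (4 groups of 3) were analysed as deposited. The authors' counts are raw reads per gene, made with featureCounts 1.5.0-p3 per the submitters' processing notes, and the deposited FPKM values are the authors' own. For the aligner, build, annotation and strandedness: not given in the sources used here. Near-identical copies in wheat's subgenomes can share reads.

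Counts were fitted with edgeR 4.0.16 (R 4.3.3; TMM, its default filter on low counts, quasi-likelihood, 1 mean per group over all 12 libraries so that the spread is shared), with the contrast C40 minus C20 and Benjamini-Hochberg adjustment over all 75788 genes tested. Standard errors were derived from the log2 difference and the F statistic. The fit was tested on simulated data with known changes. These counts were drawn independently for each gene, so shifts across a whole library, such as those of the histones, were not covered. Alternatives were DESeq2 1.42.0, limma 3.58.1 on log2 FPKM (pseudocounts 0.1 and 1), other scalings and filters, a replicate block, a core histone covariate, the 6 libraries alone and leaving out libraries. Pairs of replicates within C40 and C20 differed by 14.6 to 170 chi-square units per gene, so none was a repeat deposit. Depth sets the precision of low genes: a fold against a line at 0 was set against 3 counts in that line, and ratios resting on 1 to 3 counts carry a 95 percent counting interval.

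The comparison and the gene lists were chosen with earlier results of these data known. Named genes were the 12 described genes with the largest called difference in each direction (mean of at least 2 CPM), the called member of lowest adjusted p in each list and direction, the alternative oxidase genes, NAC genes of high mean CPM and on-off genes. Other genes named were chosen after their values were seen. The following families were listed after values were seen: KNOX, BELL, HD-type homeobox, ALOG, PEBP, LOB, SBP, TCP, YABBY, nicotianamine synthases, ABA/WDS, PDR transporters, family 10 glycosyl hydrolases, cupins, polyphenol oxidases, ketoacyl synthases, WAX2, hydrophobic seed proteins, K+ transporters, BURP and wall-associated galacturonan-binding proteins.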

Additional observations from a re-analysis of the deposited data

How the results depend on the processing

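The 1097 called genes (786 higher and 311 lower in C40) depended on how the spread was estimated. DESeq2 called 4964 (2940 higher, 2024 lower), and a core histone covariate 4201 (2510 and 1691). Limma on log2(FPKM + 0.1) called 1896 (1393 and 503), and on log2(FPKM + 1) 2034 (1573 higher, 461 lower). With only the 6 libraries of C40 and C20, 0 were called, 0 higher and 0 lower (edgeR; 6101 at an unadjusted p below 0.05). Leaving out 1 library gave 224 to 3624 called genes, 145 to 1341 higher and 45 to 2283 lower. Without both histone-poor libraries (C20 replicate 3 and C40 replicate 1), 741 were called, 550 higher and 191 lower. DESeq2's size factors in edgeR gave 1075, no filter 947, and a filter of at least 1 CPM in 3 libraries 918. The share of higher genes was 71.6 percent, but 59.2 percent with DESeq2, 59.7 percent with the histone covariate, 83.3 percent without C40 replicate 3 and 37 percent without C20 replicate 2. The called genes that could be fitted kept their sign in each of these fits (1097 of 1097, 934 of 934 under the CPM filter and 1063 of 1063 with 6 libraries). The difference of TraesCS5D01G481200, not called, changed from -0.74 to 0.05 without both histone-poor libraries and was -1.2 without C20 replicate 2. The cause of these shifts was not tested.

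A replicate block called 699 genes (508 higher, 191 lower), 618 of them shared with the fit without it. The labels do not say that the numbers mark a shared origin, and deviations of same-numbered libraries correlated at -0.143, 0.372 and -0.513 across genes, with 1 of 3 C40 libraries closest to the C20 library of its number, so the block was not used. Genes with few counts limit the comparison: a group without counts allows up to 3 counts.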

Other observations

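For some genes C20 rather than C40 was the line farther from wild type. Of the 786 genes higher in C40, 175 had a WT level nearer to C40, and of the 311 lower genes, 30 did.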
